A study of Homo sapiens with 9 samples.

Results

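The genes described here are 10 immune checkpoint ligands and related shield proteins of the tumour cell surface: CD274 (PD-L1), PDCD1LG2 (PD-L2), CD276 (B7-H3), VTCN1 (B7-H4), HHLA2 (B7-H7), PVR (CD155), NECTIN2 (CD112), LGALS9 (galectin-9), CD47 and CD55. They were picked by gene name and make up 10 of the 45754 genes in the deposited table. RNA was sequenced from 9 libraries of human lung cancer cells, 3 per group. One group received the compound RSGL at 10 µM, another the compound BSGL at 10 µM, and the control group the solvent alone as 0.1% DMSO, each for 24 h. The cells of all groups were grown in RPMI medium with 10% serum.

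All 9 libraries carry the cell line label H441, a lung adenocarcinoma line. The genotype tag differs from that label and between groups: it reads A549 in the RSGL libraries, and H460 in the BSGL and control libraries. By the labels alone, compound and tag therefore cannot be told apart wherever RSGL libraries are compared with others. Of the 9 surfactant, secretoglobin and lineage genes listed as H441 markers, 0 reached 1 FPKM in at least 3 libraries, and NKX2-1 peaked at 0.0596 FPKM. All 12 genes listed as typical of KEAP1-mutant lines passed that filter, as did 5 of 7 epithelial markers. The KEAP1 list summed to 2378 to 2456 FPKM in RSGL libraries, 4029 to 4110 FPKM in BSGL libraries and 4320 to 4432 FPKM in control libraries. The epithelial list summed to 1278 to 1305 FPKM in RSGL libraries, 1727 to 1782 FPKM in BSGL libraries and 1716 to 1759 FPKM in control libraries. Both sums were thus lower in the RSGL libraries, and abundant genes weigh most in them, such as ALDH1A1 (762 FPKM in RSGL, 1961 FPKM in control). In the KEAP1 list TXNRD1 (468 against 430 FPKM) and AKR1C1 (34.0 against 30.5 FPKM) averaged higher in RSGL than in control libraries. In the epithelial list KRT19 (4.07 against 2.05 FPKM) and EPCAM (0.528 against 0.363 FPKM) did so. All other genes of these lists averaged lower. The part of these lists in the ligand values was not tested. At 10 FPKM or more in all RSGL libraries and under 0.5 FPKM in all control libraries stood 1 gene, the reverse held for 0 genes, and 4498 genes reached 10 FPKM in every library of both groups. What the 2 compounds are beyond their code names is not given in the labels.

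Checkpoint ligands dampen the attack of immune cells on the cell that carries them. PD-L1 and PD-L2 bind PD-1 on T cells, and lung cancers are treated with antibodies that break this contact. PVR and NECTIN2 engage TIGIT as an inhibitory receptor and DNAM-1 as an activating one, and NECTIN2 also engages PVRIG, an inhibitory receptor. CD47 binds SIRPα on macrophages and inhibits phagocytosis, and CD55 speeds the decay of complement convertases. In many cells CD274 and PDCD1LG2 are induced by interferon through JAK kinases and IRF1, and other factors such as AP-1 and STAT3 have also been described at CD274.

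RSGL libraries held more RNA than control libraries for 6 of the 10 ligands, where 54.8% of all tested genes were called, 27.2% higher and 27.6% lower. PDCD1LG2 and CD274 rose the most, 6.17-fold and 3.62-fold by mean FPKM (FPKM, fragments per gene scaled to gene length and library size). CD55, CD276 and PVR rose 1.58-, 1.52- and 1.43-fold, CD47 rose 1.19-fold, and NECTIN2 stayed within the spread of the libraries. Between BSGL and control libraries 0 of the 7 ligands abundant enough to be tested were called, where 0.0861% of all tested genes were called. HHLA2 and VTCN1 were at the limit of detection in every library.

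The libraries held 16720414 to 18738947 fragments in genes, and 12213 to 12338 genes reached 1 FPKM. Markers of T cells, B cells, NK cells and endothelium passed the filter for 0 of 7, 0 of 5, 0 of 5 and 0 of 7 genes, and PTPRC, the pan-leukocyte gene, peaked at 0.0133 FPKM, with CD3D, CD3E and CD3G at 0 in all libraries. Of the macrophage list 2 of 8 genes passed, CD68 and CD14. The summed level of that list was 116.8 to 121.8 FPKM in RSGL libraries, 47.1 to 48.2 FPKM in BSGL libraries and 42.6 to 43.0 FPKM in control libraries, almost all of it CD68, a lysosomal protein gene that epithelial cells also use. Its CD14 part went the other way, with means of 0.346, 1.64 and 2.11 FPKM in RSGL, BSGL and control libraries. Of the dendritic cell list 1 of 6 genes passed (CD83), with sums of 3.37 to 3.54 FPKM in RSGL libraries, 1.66 to 1.95 FPKM in BSGL libraries and 1.75 to 1.94 FPKM in control libraries. Of the fibroblast list 3 of 9 passed, with sums of 7.93 to 8.21 FPKM in RSGL libraries, 10.4 to 11.1 FPKM in BSGL libraries and 9.95 to 11.4 FPKM in control libraries. The part of these markers in the ligand values was not tested. In bulk RNA, fewer cells of a kind and less RNA per cell cannot be told apart.

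The promoters of 4 ligands are shown because they cover the range of responses described below, CD274 (the larger rise), CD55 and PVR (smaller rises) and NECTIN2 (no call). Each is the 250 bases before a RefSeq start on the plus strand of GRCh38.p14, and capitals mark matches to any of 6 motifs, on either strand. That start lies downstream of the first base of the gene given below, so each window reaches into the gene as listed. Positions are counted from the RefSeq start used for the window, not from that first base.
CD274 chr9:5450292-5450541: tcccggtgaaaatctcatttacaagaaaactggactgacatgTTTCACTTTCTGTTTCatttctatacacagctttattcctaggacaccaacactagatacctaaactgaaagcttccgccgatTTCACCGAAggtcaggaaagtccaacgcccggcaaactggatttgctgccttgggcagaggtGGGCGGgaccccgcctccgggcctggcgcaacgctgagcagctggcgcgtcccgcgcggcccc
CD55 chr1:207321428-207321677: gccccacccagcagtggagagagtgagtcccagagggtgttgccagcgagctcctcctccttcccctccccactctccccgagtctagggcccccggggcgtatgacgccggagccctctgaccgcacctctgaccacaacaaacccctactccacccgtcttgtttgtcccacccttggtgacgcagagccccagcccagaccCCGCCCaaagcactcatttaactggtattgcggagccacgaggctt
PVR chr19:44643660-44643909: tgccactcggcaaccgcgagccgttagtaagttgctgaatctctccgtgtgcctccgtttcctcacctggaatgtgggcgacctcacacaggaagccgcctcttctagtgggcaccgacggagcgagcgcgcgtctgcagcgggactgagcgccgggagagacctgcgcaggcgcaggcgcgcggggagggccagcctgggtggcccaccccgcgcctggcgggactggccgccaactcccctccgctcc
NECTIN2 chr19:44846047-44846296: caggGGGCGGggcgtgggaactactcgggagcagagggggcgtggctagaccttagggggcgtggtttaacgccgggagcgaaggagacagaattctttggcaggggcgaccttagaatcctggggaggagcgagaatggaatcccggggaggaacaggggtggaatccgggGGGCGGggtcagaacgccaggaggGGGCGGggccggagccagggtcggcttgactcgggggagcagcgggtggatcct
The motifs were an interferon-stimulated element (GAAA, any 2 bases, GAAA), a STAT or GAS element (TTCNNNGAA), an AP-1 site (TGANTCA), an ATF4 composite site (TGATGNAA), the SP1 GC box (GGGCGG) and the TATA box (TATAAA). The letters of the GAS element and of the AP-1 site read alike on both strands, so 1 place is counted once. Among 35116 RefSeq windows of 300 bases, 250 before and 50 after a start, the interferon element occurred in 3.57%, the GAS element in 7.66%, the AP-1 site in 7.71%, the ATF4 site in 3.62%, the GC box in 45.0% and the TATA box in 11.5%.

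In the CD274 promoter the first capital run holds 2 overlapping matches to the interferon-stimulated element on the opposite strand, read there as GAAAGTGAAA and GAAACAGAAA, whose first bases lie at -208 and -202 from the start. The second run is a GAS element at -125, and the third is a GC box at -63. CD55 showed 1 GC box and NECTIN2 showed 3, and the PVR promoter held 0 matches to the 6 motifs. AP-1, ATF4 and TATA letters were absent from these 4 windows. A match describes letters only. RefSeq windows were at hand for 9 of the 10 ligands, 12 windows in all, and PDCD1LG2 was the ligand without one. In the 300-base windows that are not printed, the interferon element also matched in LGALS9 (first base at -9) and in a window of HHLA2 (41). AP-1 letters matched in another HHLA2 window (-139) and in VTCN1 (2). The windows of CD276 and CD47 matched GC boxes alone.

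CD274 encodes PD-L1, the principal ligand of PD-1 on tumour cells (gene ID 29126, chromosome 9, 5450503 to 5470567, plus strand, GRCh38). It measured 4.41, 3.87 and 3.82 FPKM in the RSGL libraries, 1.32, 1.34 and 1.84 FPKM in the BSGL libraries, and 1.01, 1.11 and 1.22 FPKM in the control libraries. Every RSGL value lay above every other value. The BSGL values also lay above all control values, by a smaller margin. These levels rest on 263 to 332 fragments per RSGL library, 95 to 135 per BSGL library and 74 to 88 per control library.

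On the scale of log2(FPKM + 1), CD274 was higher by 1.25 in RSGL than in control libraries (SE 0.0894, 95% interval 1.05 to 1.45), and passed the test with an adjusted p of 1.84e-06 (limma, Benjamini-Hochberg over 12775 genes). RSGL against BSGL gave a difference of 1.01 (adjusted p = 8.73e-06 by limma). Against control, BSGL gave 0.24 with an interval of 0.04 to 0.44, an unadjusted p of 0.0246 and an adjusted p of 0.638 by limma, which is not a call. Without BSGL replicate 3 that difference was 0.14, and without BSGL replicate 1 it was 0.29. It was 0.39 with a pseudocount of 0.1 and 0.40 with limma-voom on recovered fragments, none of them a call. The added 1 compresses changes of low genes: with a pseudocount of 0.1 the CD274 difference between RSGL and control was 1.77, and it was 1.85 with limma-voom on recovered fragments.

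PDCD1LG2 encodes PD-L2, the other ligand of PD-1, best known from dendritic cells and macrophages (gene ID 80380, chromosome 9, 5510438 to 5571282, plus strand). Its levels were 3.01, 3.29 and 3.44 FPKM in the RSGL libraries, 0.769, 0.765 and 0.593 FPKM in the BSGL libraries, and 0.493, 0.483 and 0.603 FPKM in the control libraries. RSGL values stood apart from all others, while BSGL and control values overlapped. Fragments per library numbered 149 to 159 with RSGL, 29 to 39 with BSGL and 24 to 29 in control.

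The difference between RSGL and control was 1.48 (SE 0.0774, interval 1.30 to 1.65, adjusted p = 2.08e-07 by limma), and that between RSGL and BSGL was 1.31 (adjusted p = 5.28e-07). PDCD1LG2 reached 1 FPKM only in RSGL libraries, so it entered the test through the group in which it was high. Fitted with no filter on low values, its adjusted p for RSGL against control was 2.20e-06 by limma. With a pseudocount of 0.1 the difference was 2.42, and with limma-voom 2.60. BSGL against control gave 0.16 (interval -0.01 to 0.34, adjusted p = 0.786 by limma).

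Together the PD-1 ligands summed to 7.28 ± 0.13 FPKM in RSGL libraries, 2.21 ± 0.19 FPKM in BSGL libraries and 1.64 ± 0.16 FPKM in control libraries (SD, n = 3 each). The ratio of CD274 to PDCD1LG2 was 1.11 to 1.46 in RSGL libraries, 1.72 to 3.10 in BSGL libraries and 2.02 to 2.30 in control libraries. RSGL libraries thus held the transcripts of both ligands at more nearly equal levels. An antisense lncRNA, LOC107987045, overlaps both genes. It averaged 0.117 FPKM in RSGL, 0.189 FPKM in BSGL and 0.140 FPKM in control libraries, and, with the strand setting of the counting not given in the sources used here, reads from the overlaps cannot be assigned to a strand.

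**Figure D1:**
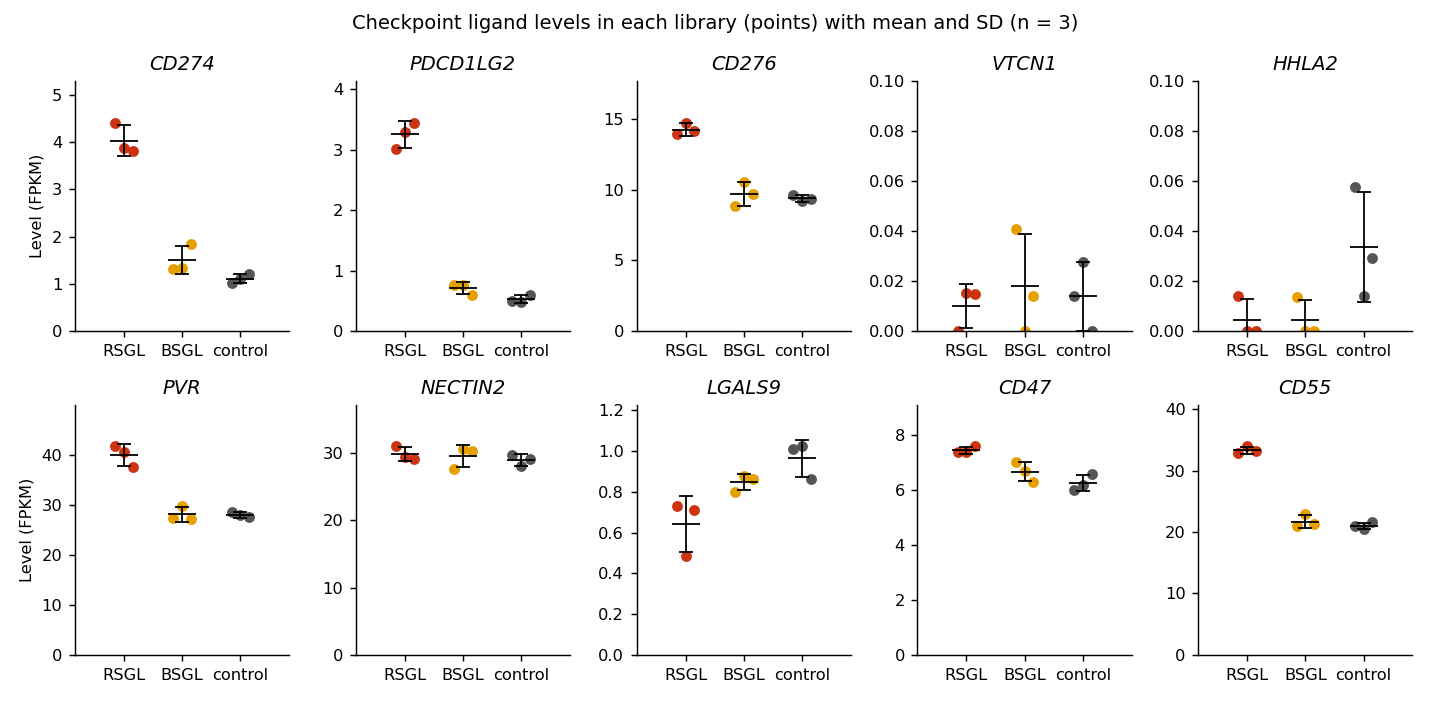
Level of each of the 10 ligands in FPKM (vertical axes, each from 0) in the RSGL, BSGL and control libraries (points), with the mean and SD of 3 libraries (bars). CD274 and PDCD1LG2 in RSGL libraries, at 3.82 to 4.41 and 3.01 to 3.44 FPKM, lie above all other libraries, and NECTIN2 overlaps in all 3 groups.

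The other B7 family members differed widely in level. CD276, B7-H3, is common on carcinoma cells and its receptor is debated (gene ID 80381, chromosome 15, 73683966 to 73714518, plus strand). It measured 13.9, 14.7 and 14.1 FPKM in the RSGL libraries, 8.84, 10.6 and 9.69 FPKM in the BSGL libraries, and 9.63, 9.17 and 9.35 FPKM in the control libraries. RSGL values lay above all others, and the BSGL values bracketed those of control. The difference was 0.55 for RSGL against control (SE 0.057, adjusted p = 2.40e-05), 0.51 for RSGL against BSGL (adjusted p = 4.35e-05) and 0.04 for BSGL against control (adjusted p = 0.961), all by limma.

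VTCN1, B7-H4, an inhibitor of T cells (gene ID 79679, chromosome 1, 117143587 to 117210992, minus strand), was counted at 0 to 1 fragments in RSGL libraries, 0 to 3 in BSGL libraries and 0 to 2 in control libraries. HHLA2, B7-H7, which binds TMIGD2 and KIR3DL3 (gene ID 11148, chromosome 3, 108296490 to 108378285, plus strand), had 0 to 1 fragments in RSGL libraries, 0 to 1 in BSGL libraries and 1 to 4 in control libraries. Both stayed at or near the floor of 3 fragments per library, the count that 0 observed fragments would still allow. No difference was detectable at this depth, and no fold is given.

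PVR and NECTIN2 share receptors, lie on the same chromosome arm and behaved differently. PVR (gene ID 5817, chromosome 19, 44643798 to 44666161, plus strand) measured 41.7, 40.6 and 37.5 FPKM in the RSGL libraries, 27.3, 29.7 and 27.2 FPKM in the BSGL libraries, and 28.6, 27.9 and 27.5 FPKM in the control libraries. All RSGL values were higher than all others, and BSGL and control overlapped. The difference was 0.50 for RSGL against control (SE 0.048, interval 0.39 to 0.61, adjusted p = 1.52e-05) and 0.49 for RSGL against BSGL (adjusted p = 1.79e-05). For BSGL against control it was 0.0042, with an interval of -0.10 to 0.11 (limma).

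NECTIN2 (gene ID 5819, chromosome 19, 44846136 to 44889228, plus strand) measured 30.9, 29.4 and 29.1 FPKM in the RSGL libraries, 27.6, 30.5 and 30.3 FPKM in the BSGL libraries, and 29.7, 28.0 and 29.1 FPKM in the control libraries. The 3 groups overlapped. RSGL and control differed by 0.04, with an interval of -0.06 to 0.14 (adjusted p = 0.491 by limma), and RSGL and BSGL by 0.02, with an interval of -0.09 to 0.12 (adjusted p = 0.788). A difference in NECTIN2 as large as that of PVR lies outside these intervals.

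The ratio of PVR to NECTIN2 was accordingly 1.29 to 1.38 in RSGL libraries, 0.899 to 0.988 in BSGL libraries and 0.943 to 0.994 in control libraries. RSGL ratios did not overlap those of the other groups. The pair summed to 69.7 ± 3.0 FPKM in RSGL libraries, 57.5 ± 2.7 FPKM in BSGL libraries and 56.9 ± 1.2 FPKM in control libraries (SD, n = 3 each). The lncRNA LOC107985305 overlaps PVR and averaged 1.15, 1.32 and 1.24 FPKM in RSGL, BSGL and control libraries, far under PVR itself.

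LGALS9, galectin-9, a sugar-binding protein and ligand of TIM-3 (gene ID 3965, chromosome 17, 27631148 to 27649560, plus strand), was the ligand with lower values in RSGL libraries. It measured 0.732, 0.483 and 0.710 FPKM in the RSGL libraries, 0.801, 0.879 and 0.863 FPKM in the BSGL libraries, and 1.01, 1.02 and 0.860 FPKM in the control libraries. RSGL values lay under all others, and BSGL and control overlapped. Only 2 of 9 libraries reached 1 FPKM, so LGALS9 was left out of the main test.

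Its mean in RSGL libraries was 0.666 of the control mean, an exact two-sided permutation test gave p = 0.1, the smallest p that 3 against 3 libraries allow, and without the filter the limma adjusted p was 0.041 for a difference of -0.26. LGALS9B and LGALS9C are near-identical copies with which reads may be shared, and LGALS9B averaged 1.35, 2.29 and 2.61 FPKM in RSGL, BSGL and control libraries. The value of LGALS9 is therefore uncertain.

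CD47 is the signal against phagocytosis (gene ID 961, chromosome 3, 108043094 to 108094200, minus strand). It measured 7.36, 7.36 and 7.58 FPKM in the RSGL libraries, 6.999, 6.67 and 6.30 FPKM in the BSGL libraries, and 5.99, 6.19 and 6.58 FPKM in the control libraries. RSGL values were above all others, and BSGL and control overlapped. The difference between RSGL and control was 0.22 (interval 0.11 to 0.33, adjusted p = 0.00367). That between RSGL and BSGL was 0.14 (interval 0.03 to 0.25, adjusted p = 0.0333), a call lost at an adjusted p of 0.0730 without the filter and of 0.0555 with quantile scaling, and also lost without BSGL replicate 2 (0.0712) or 3 (0.119), or without RSGL replicate 1 (0.0598), 2 (0.0632) or 3 (0.0838), all by limma.

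CD55, decay-accelerating factor, protects cells from complement and also binds the adhesion receptor CD97 (gene ID 1604, chromosome 1, 207321472 to 207360966, plus strand). It measured 32.8, 33.9 and 33.2 FPKM in the RSGL libraries, 20.9, 22.8 and 21.2 FPKM in the BSGL libraries, and 21.0, 20.5 and 21.5 FPKM in the control libraries. The RSGL libraries varied among themselves by an SD of 0.581 FPKM and lay above all others, and BSGL and control overlapped. The difference was 0.64 for RSGL against control (SE 0.0398, adjusted p = 6.77e-07), 0.60 for RSGL against BSGL (adjusted p = 1.23e-06) and 0.04 for BSGL against control (adjusted p = 0.938), all by limma.

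**Figure D2:**
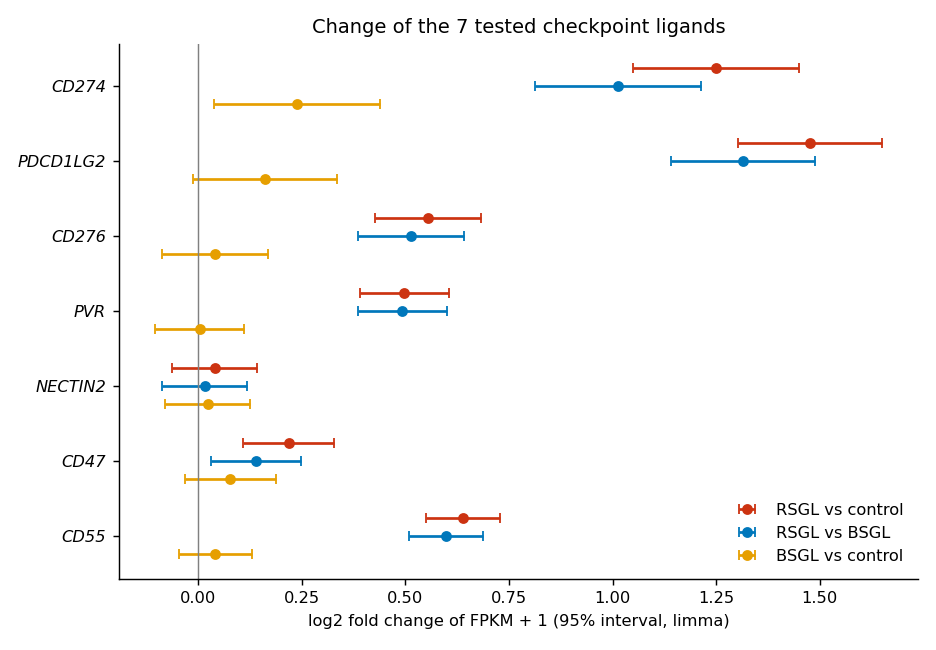
Difference in log2(FPKM + 1) (horizontal axis) of the 7 tested ligands, with 95% intervals from limma, for RSGL against control (red), RSGL against BSGL (blue) and BSGL against control (orange). NECTIN2 intervals include 0 in all 3 comparisons, while CD274 and PDCD1LG2 reach 1.25 and 1.48 for RSGL against control.

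For RSGL against control, 6 of the 7 tested ligands were called higher and 0 lower, 1 was not called and 3 of the 10 were not tested. The share called higher among all 12775 tested genes was 27.2%. Their median difference was -0.00085 and the quartiles were -0.20 and 0.21. A difference toward higher values in RSGL, at least as large as that of CD274, was found in 132 genes, 1.03% of those tested. One at least as large as that of PDCD1LG2 was found in 62. These counts include the ligands themselves and leave out genes that were lower in RSGL libraries. The count is a description, since being called at all was common and PDCD1LG2 entered through the RSGL libraries.

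For RSGL against BSGL the counts were also 6, 0, 1 and 3, with 5 called in the settings that lose CD47, against 54% called among all genes, 26.5% higher and 27.5% lower. For BSGL against control 0 of 7 were called, against 0.0861% of all genes, or 11 genes, 0.047% higher and 0.0391% lower. At an unadjusted p under 0.05, 857 genes passed in that comparison, CD274 among them, and limma-voom called 31 genes. With any 1 library left out limma called 0 to 8 genes in place of the 11. The comparisons share libraries, so they are not independent of each other.

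The order of levels changed at the top with RSGL. In RSGL libraries it ran PVR, CD55, NECTIN2, CD276, CD47, CD274, PDCD1LG2, LGALS9, with VTCN1 and HHLA2 last, and neighbours above VTCN1 did not overlap. In BSGL libraries NECTIN2 and PVR led with overlapping ranges, followed by CD55, CD276, CD47, CD274, LGALS9 and PDCD1LG2. Control libraries had the order of the BSGL libraries down to PDCD1LG2, with CD274 and LGALS9 also overlapping. PDCD1LG2 thus ranked above LGALS9 in RSGL libraries and below it in the other groups. The 10 ligands summed to 132.6 ± 2.8 FPKM in RSGL libraries, 98.7 ± 4.4 FPKM in BSGL libraries and 96.2 ± 1.6 FPKM in control libraries (SD, n = 3 each).

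CD274 and PDCD1LG2 are neighbours, with 39.9 kb between them. With the ligands included, 15 protein-coding genes of the table lie in the stretch that reaches 500 kb to each side, of which 9 were tested. For RSGL against control, 4 were higher, the ligands among them, and 1 was lower. The share called among all tested genes was 54.8%, 27.2% higher and 27.6% lower. PLGRKT, a plasminogen receptor gene on the other side of CD274, was at 31.2 FPKM in RSGL, 22.2 FPKM in BSGL and 21.5 FPKM in control libraries, a difference of 0.52 between RSGL and control (adjusted p = 2.36e-05 by limma). ERMP1 was the remaining higher gene, by 0.14. RIC1, the next gene beyond PDCD1LG2, gave -0.10 (adjusted p = 0.0574) and JAK2 gave -0.22 (adjusted p = 0.0799), neither a call. INSL4, a placental insulin-like gene, fell to 4.64 FPKM in RSGL libraries, against 18.4 FPKM in control libraries.

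PVR and NECTIN2 are separated by 180.0 kb. With both included, 38 protein-coding genes lie in the stretch that reaches 500 kb to each side, of which 26 were tested. In RSGL against control 9, PVR among them, were higher and 4 lower, where 54.8% of all tested genes were called, 27.2% higher and 27.6% lower. Between the ligands, CEACAM19, a relative of the carcinoembryonic antigens, was higher by 0.29. BCL3, a nuclear IκB protein, fell to 5.81 FPKM in RSGL libraries, against 15.9 FPKM in control libraries, a difference of -1.31 (adjusted p = 1.83e-07 by limma). The laminin receptor BCAM and TOMM40, a mitochondrial import channel, flank NECTIN2 and fell by 0.40 each. RELB, a subunit of NF-κB, was higher by 0.54.

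**Figure D3:**
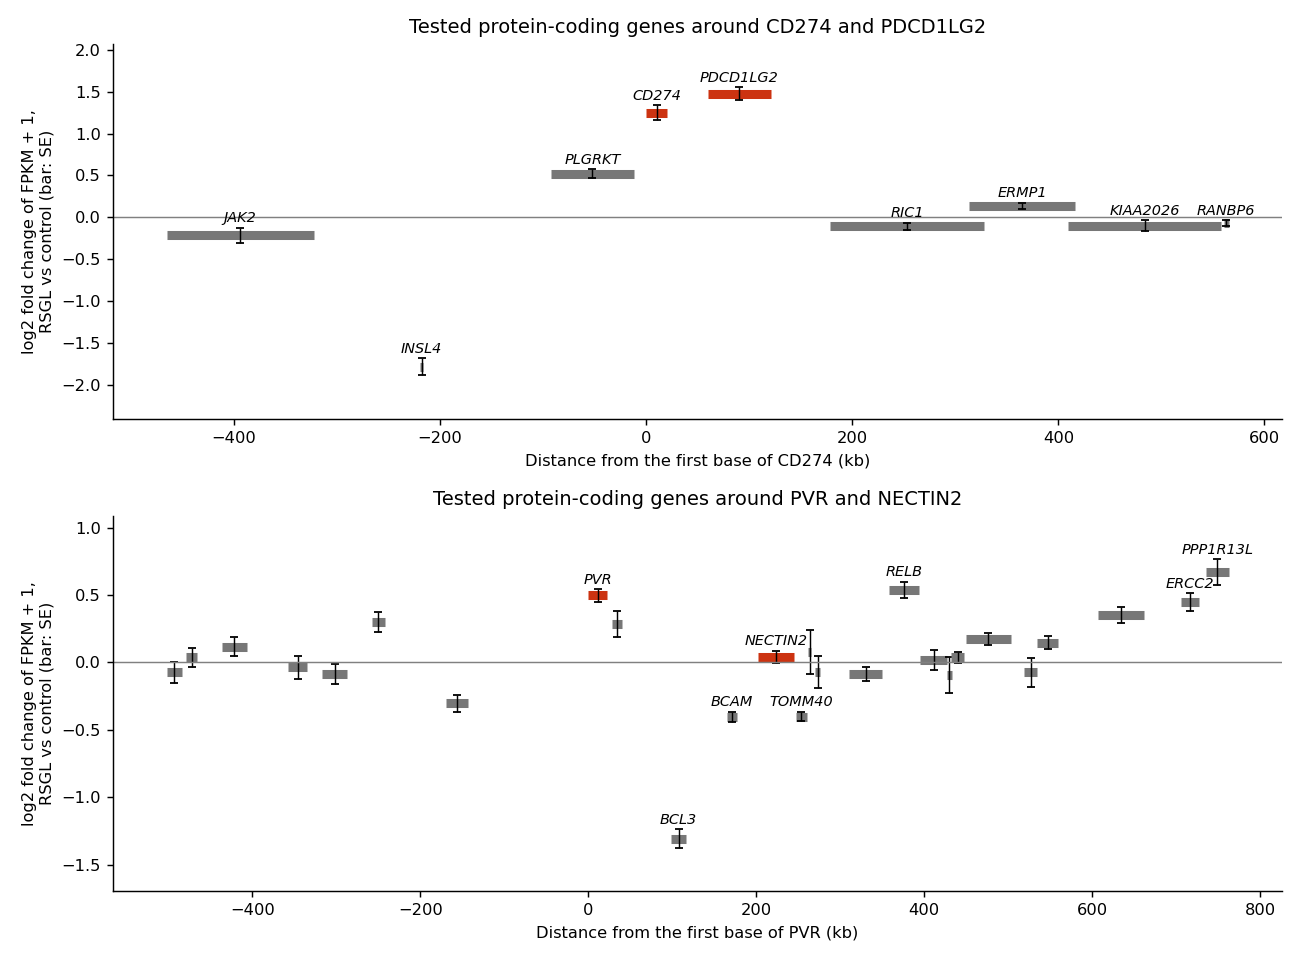
Difference in log2(FPKM + 1) between RSGL and control (vertical axis, thin bars are SE) for the tested protein-coding genes around CD274 (top) and PVR (bottom), against distance from the first base of each in kb; thick bars span each gene and red marks the ligands. CD274 and PDCD1LG2 are the highest of their stretch, at 1.25 and 1.48, and NECTIN2, at 0.04, lies between BCAM and TOMM40, both at -0.40.

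Over the 9 libraries, the protein-coding genes whose log2(FPKM + 1) ran most like that of CD274, of 10908 compared, were IGF2BP2 (Pearson r = 0.994), SFXN3 (0.994), CCDC88C (0.993), EIF4EBP1 (0.992) and FHL2 (0.992). Among the ligands r with CD274 was 0.968 for PDCD1LG2, 0.965 for CD55, 0.948 for CD276, 0.945 for PVR, 0.849 for CD47, 0.367 for NECTIN2 and -0.812 for LGALS9. Many other genes ran closer to CD274: among the 10908 genes PDCD1LG2 ranked 480, CD55 542, CD276 991, PVR 1050, CD47 2397 and NECTIN2 4572. These values are a description: the 9 libraries form 3 groups and are not independent points.

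The interferon and STAT route to PD-L1 showed no common direction. Of its 18 listed genes 17 were tested, and 2 were higher and 4 lower in RSGL than in control libraries, with a median difference of 0.03. For this list and those below, the share called among all tested genes was 54.8%, 27.2% higher and 27.6% lower. The higher ones were the interferon receptor genes IFNAR1 (0.22) and IFNAR2 (0.28). STAT3 fell to 32.7 FPKM in RSGL libraries, against 45.1 FPKM in control libraries (-0.45, adjusted p = 9.84e-07), and IRF7 fell by 0.53 on the log2 scale (0.417 against 1.04 FPKM, adjusted p = 0.0277), both by limma. IRF7 lay near the filter of 1 FPKM and entered the test only through libraries outside the RSGL group, where it was higher. PTPN2, a phosphatase that restrains this route, was also lower, at -0.24. IRF1, the factor through which interferon-γ induces CD274, measured 13.4 FPKM in RSGL and 12.7 FPKM in control libraries, which did not pass (0.07, adjusted p = 0.234).

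Of 16 transcription factor genes described at CD274, all tested, 8 were higher and 5 lower, with a median of 0.10. The stress factor DDIT3 averaged 61.5 FPKM in RSGL and 14.02 FPKM in control libraries (2.06, adjusted p = 1.63e-08). The AP-1 subunits JUN, at 72.2 against 18.5 FPKM (1.91, adjusted p = 4.21e-09), and FOSL1, at 121.1 against 42.2 FPKM (adjusted p = 7.19e-09), rose as well, and ATF4 rose to 200.4 FPKM, against 110.7 FPKM (0.85). The TEAD1 gene of the Hippo pathway fell by 0.55, and JUNB by 0.34. HIF1A (-0.03) and NFKB1 (-0.13) did not pass.

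Genes that act on PD-L1 protein changed by smaller amounts: of 21, all tested, 8 were higher and 4 lower, with a median of 0.09. ADAM17, a protease that sheds PD-L1, was at 15.5 FPKM in RSGL and 11.1 FPKM in control libraries (0.44, adjusted p = 0.000101 by limma). CSNK2A1, a casein kinase 2 subunit, was at 97.4 and 74.6 FPKM (0.38), and the deubiquitinase USP22 was at 47.5 and 64.4 FPKM (-0.43). SPOP and CUL3, parts of a ubiquitin ligase that marks PD-L1 for degradation, fell by 0.21 and 0.16, and the deubiquitinase OTUB1 by 0.27. GSK3B and BTRC, of another degradation route of PD-L1, rose by 0.16 and 0.17, and HIP1R, which directs PD-L1 to lysosomes, by 0.20. CMTM6, which keeps PD-L1 at the cell surface, was at 27.5 FPKM in RSGL and 29.5 FPKM in control libraries and did not pass (adjusted p = 0.231). Protein was not measured in these libraries.

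Relatives of the ligands moved in both directions between RSGL and control. Of 14 other B7 and butyrophilin genes 7 were tested, 3 higher and 1 lower (median 0.17): BTN2A2 (0.33), BTN2A1 (0.28) and BTN3A1 (0.17) rose and ERMAP fell (-0.24). The T-cell co-stimulators CD80 and CD86 averaged at most 0.0193 FPKM in any group. Of 7 other nectin family genes 5 were tested, 2 higher and 2 lower (median 0.12): CADM4 (0.64) and AFDN (0.31), the scaffold that binds nectin tails, rose, and CADM1 (-0.66) and NECTIN3 (-0.25), a binding partner of PVR and NECTIN2, fell. Of 12 other galectin genes 6 were tested, 4 higher and 1 lower (median 0.15). LGALS3 was at 33.2 FPKM in RSGL and 22.2 FPKM in control libraries (0.56), LGALS8 gave 0.29, and LGALS9B, the copy of LGALS9, gave -0.60.

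Around CD47, of 10 genes of phagocytosis signalling 9 were tested, 3 higher and 4 lower (median -0.07). QPCTL, the enzyme that modifies CD47 for SIRPα binding, was at 8.81 FPKM in RSGL and 5.33 FPKM in control libraries (0.63, adjusted p = 1.23e-05). CD24, another signal against phagocytosis, was at 71.5 and 165.4 FPKM (-1.20, adjusted p = 6.27e-09), and THBS1, a secreted partner of CD47, at 5.69 and 14.2 FPKM (-1.19, adjusted p = 3.28e-08), all by limma. CALR, a signal that favours phagocytosis when exposed, gave -0.43.

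Beside CD55, of 11 other complement regulators 5 were tested, 2 higher and 3 lower (median -0.18). The membrane regulators CD59, which blocks the membrane attack complex, at 33.7 FPKM in RSGL and 24.6 FPKM in control libraries (0.44, adjusted p = 1.13e-06), and CD46 (0.13) rose. The secreted proteins CLU (-0.60) and VTN (-0.18) were among those that fell, all by limma.

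Receptors of the ligands were mostly near 0, as 3 of 12 were tested. PDCD1, the PD-1 gene, and KIR3DL3 were listed at 0 in all groups. PVRIG, a receptor of NECTIN2, averaged 1.35 FPKM in RSGL and 3.43 FPKM in control libraries (-0.91, adjusted p = 0.000266), and SIRPA, the receptor of CD47, 5.18 and 7.06 FPKM (-0.39, adjusted p = 0.00329), both by limma. ADGRE5, the CD97 receptor of CD55, did not pass (20.2 and 20.2 FPKM).

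Other surface and secreted immune signals were also counted for RSGL against control. Of 12 ligands of NK receptors 7 were tested, 4 higher and 1 lower (median 0.23). ULBP1 was at 4.15 and 1.03 FPKM (1.34) and ULBP2 at 7.91 and 2.94 FPKM (1.18), while RAET1L was lower (-0.66). ULBP1, ULBP2 and RAET1L are all ligands of the activating receptor NKG2D. Of 13 TNF superfamily genes 6 were tested, 4 higher and 0 lower (median 0.42), among them the death receptor genes TNFRSF10B (0.79) and TNFRSF10A (0.62) and the co-stimulator TNFSF9 (0.45). Of 14 soluble suppressors and their enzymes 10 were tested, 7 higher and 1 lower (median 0.51). HMOX1, haem oxygenase, was at 377.3 and 62.4 FPKM (2.58), VEGFA at 63.4 and 15.6 FPKM (1.96) and PTGES, which makes prostaglandin E2, at 147.7 and 68.8 FPKM (1.09), and TGFB2 fell by 1.08.

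Of 22 genes of MHC class I presentation 14 were tested, 5 higher and 3 lower (median 0.12), with HLA-B (0.39) and HLA-C (0.29) higher. PSMB8 and PSMB9 were listed at 0 in every group and TAP1 at 0 or near it. Whether these low values reflect expression was not tested, so the class I values were not read as expression. PSME1 had the largest difference of this list in both comparisons with control (1.65 for RSGL, 1.53 for BSGL), and neither passed (adjusted p = 0.295 and 0.910 by limma), with a control SD of 23.0 FPKM around a mean of 27.0 FPKM.

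With BSGL 0 genes of these 13 lists were called among 120 different genes tested, where 0.0861% of all tested genes were called. The lowest adjusted p in the lists was 0.291 by limma. List medians lay between -0.09 and 0.08. STAT3 averaged 44.8 FPKM in BSGL and 45.1 FPKM in control libraries, ATF4 112.9 and 110.7 FPKM, and TNFRSF10B 51.6 and 49.7 FPKM. Against BSGL instead of control, RSGL gave 3 higher and 3 lower genes of the interferon list, 7 and 6 of the transcription factor list, 8 and 4 of the PD-L1 protein list and 6 and 1 of the soluble suppressors. Of all tested genes 54% were called in that comparison, 26.5% higher and 27.5% lower.

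**Figure D4:**
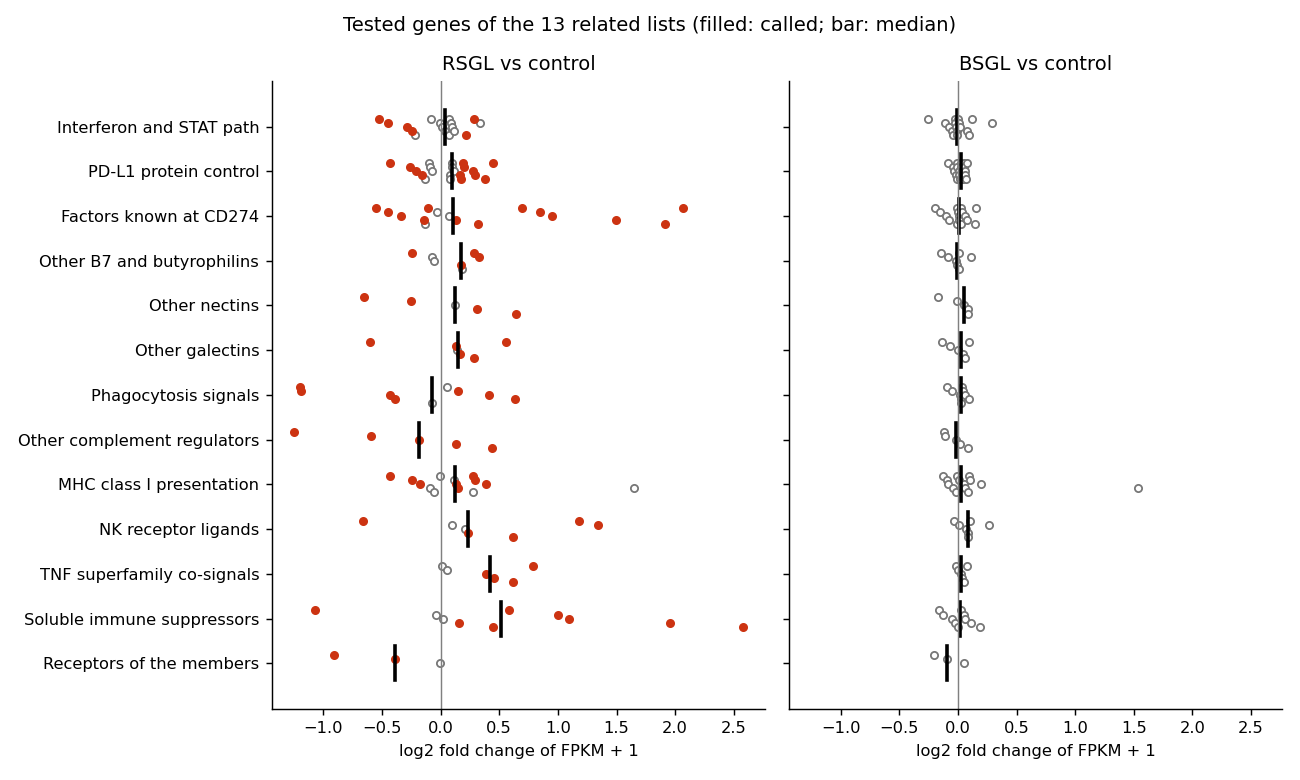
Difference in log2(FPKM + 1) (horizontal axes) of the tested genes of 13 related lists (rows), for RSGL against control (left) and BSGL against control (right). Filled points passed the test, open points did not, and bars mark list medians. With RSGL filled points lie on both sides of 0 in all lists but the TNF superfamily co-signals and the receptors, and with BSGL 0 points are filled.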

How the data were processed

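RNA was measured in 9 libraries, 3 per group. Per the labels' protocols, TRIzol was used for total RNA and a NEBNext Ultra kit for the libraries. The submitters' processing notes name DESeq2 1.16.1, HISAT2 2.0.5 and featureCounts 1.5.0-p3, without roles. The deposited values are FPKM per gene, computed by the authors, per the file headers, beside gene lengths and positions whose accessions are those of GRCh38. Whether counting used the strand is not stated in these sources.

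The ligands were taken by gene name. Ligands, lists and tests were chosen with earlier results of these data known. The test took the 12775 of 45754 genes that reached 1 FPKM in 3 or more of the 9 libraries. Group means of log2(FPKM + 1) in all 9 libraries were modelled with limma 3.58.1 (R 4.3.3, statmod 1.5.0; intensity trend, robust), and p-values were adjusted by Benjamini-Hochberg over all tested genes. A gene was called, or said to rise or fall, at an adjusted p under 0.05. Differences are first-named minus second-named group, with 95% intervals. Labels do not say that replicates were separate cultures, so p-values measure the spread between these libraries, which may be technical.

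Whole fragments were recovered from FPKM times gene length: below 300 fragments, 100% of them lay no more than 0.01 from a whole number. They served for limma-voom and for the floor of 3 fragments, which covers counting error only.

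Named list genes are, per comparison and list, up to 3 called genes with the largest difference and at least 1 FPKM in the higher group, or the most abundant gene where none was called. Neighbours of the ligands and the 5 genes most like CD274 were named as well, and other genes were chosen after their values were seen. Some list genes that this rule takes are not reported here. Alternatives were the pseudocount, the filter, median-ratio and quantile scaling, limma's options, the libraries fitted, a replicate block, limma-voom and each library left out. The script was checked on simulated data with known changes. The simulation changed few genes, all of them well counted. It therefore covers neither low genes nor as many changes as were called with RSGL.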

Additional observations from a re-analysis of the deposited data

How the results depend on the processing

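Of the recomputed values of the ligands and their counts, 394 were classed as the same, 8 were weaker, 8 changed sign and 1 was stronger. For the ligand values, the same meant an unchanged direction and side of the threshold. For the counts it also took in small shifts, such as from 6 to 5. Many of the 394 could not change direction, since settings such as the replicate block leave the difference itself as it was. For RSGL against control the calls of CD274, PDCD1LG2, CD276, PVR, CD47 and CD55 held under every alternative run. CD47 in RSGL against BSGL was lost with no filter (0.14, adjusted p = 0.0730), quantile scaling (0.13, 0.0555) and the replicate block (0.14, 0.0629), and ranged from 0.11 to 0.17 with single libraries left out (adjusted p 0.0239 to 0.119). LGALS9 in RSGL against control was called (-0.26, adjusted p = 0.041) with no filter, the one alternative in which it was tested. Values near 0 changed sign: PVR in BSGL against control was -0.0034 with quantile scaling and -0.0068 with limma-voom, and ranged from -0.036 to 0.025 with libraries left out, CD276 from -0.017 to 0.10 and NECTIN2 from -0.0018 to 0.068, and NECTIN2 in RSGL against BSGL ranged from -0.029 to 0.042. Over all genes, the 11 calls for BSGL against control became 0 with no filter, with the replicate block, with the compared groups alone and with no trend or robust option, 31 with limma-voom, and 0 to 8 with libraries left out. The cause was not tested.

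Replicate numbers gave no clear sign of pairing: of 9 same-number pairs 1 correlated above 0.1 (range -0.212 to 0.121). Pairs of different numbers ranged from -0.108 to 0.154. Whether libraries shared a day or batch was not tested. Apart from CD47 the replicate block changed no call of a ligand. HHLA2 and VTCN1 had at most 4 and 3 fragments per library, too few to compare groups at this depth.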
